A study of Mus musculus with 3 samples.

Results

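Oxidative phosphorylation is the making of ATP by the respiratory chain of mitochondria, and 32 genes of this system were followed here in liver monocytes. The genes were taken by symbol from the 53802 features of the deposited matrices, and all 32 were found. Of these, 19 are nuclear genes and 13 are the protein-coding genes of mitochondrial DNA. Their unique molecular identifier (UMI) counts were read in barcodes that had 500 or more detected genes and no more than 10% of UMIs from genes whose symbol starts with mt-.

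Ly6Chi monocytes, the inflammatory monocytes that enter injured liver from the blood, had been sorted from the livers of male C57BL/6 mice aged 8 weeks. All mice had been fasted for 12 h and had been given intraperitoneal acetaminophen at 300 mg/kg, chow was given back 2 h after it, and the cells were taken 24 h later. The 2 control libraries, with replicate numbers 1 and 3, came from Commd10fl/fl mice, in which Commd10 is flanked by loxP sites and is not deleted. The single knockout library, number 4, came from LysMDCommd10 mice, in which Cre made from the Lyz2 (lysozyme M) locus deletes the gene in myeloid cells. There was no uninjured group, so all 3 libraries share the acetaminophen injury. The sources used here do not say how many mice gave each library, so the spread between libraries may be technical.

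The respiratory chain passes electrons from NADH through complex I, or from succinate through complex II, to complex III, cytochrome c and complex IV, which reduces oxygen. Complexes I, III and IV pump protons, and complex V, the ATP synthase, uses the proton gradient to make ATP. Mitochondrial DNA encodes a few core subunits of complexes I, III, IV and V, transcribed from each strand as a long precursor that is cut into shorter RNAs. All other subunits, including every subunit of complex II, are nuclear. In macrophages the chain also supplies mitochondrial reactive oxygen species and the itaconate and succinate balance of inflammatory cells.

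Some of the mitochondrial genes have near-identical copies in nuclear DNA, because mouse chromosome 1 carries a stretch of mitochondrial DNA. In the GENCODE M21 annotation of build GRCm38, chr1:24611535-24616197 (minus strand) holds 7 unprocessed pseudogenes that match mt-Co1, mt-Co2, mt-Atp6, mt-Co3, mt-Nd3, mt-Nd4l and mt-Nd4. The libraries were sequenced from the 3′ ends of transcripts, so the last bases of a transcript are the ones a read would most often cover. On the same strand mt-Atp8 overlaps mt-Atp6 and mt-Nd4l overlaps mt-Nd4, so the end of mt-Atp8 or mt-Nd4l need not be the end of a transcript. The last 120 bases of the match are given for the 3 genes that the later values turn on. All letters are in lower case because no base differed between gene and copy; each run is 5′ to 3′ on the plus strand of mitochondrial DNA.
mt-Atp6, chrM:8485-8604, identical in Gm10925 at chr1:24613974-24614093: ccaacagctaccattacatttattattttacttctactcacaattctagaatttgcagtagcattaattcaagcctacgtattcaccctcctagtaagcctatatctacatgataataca
mt-Co2, chrM:7574-7693, identical in Gm28661 at chr1:24614885-24615004: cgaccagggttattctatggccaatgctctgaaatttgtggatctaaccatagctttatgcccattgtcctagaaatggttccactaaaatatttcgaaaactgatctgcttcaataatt
mt-Co3, chrM:9270-9389, identical in Gm28437 at chr1:24613189-24613308: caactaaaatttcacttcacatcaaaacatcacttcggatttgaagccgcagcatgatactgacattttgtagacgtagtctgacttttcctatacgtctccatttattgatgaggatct

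The match was 100% over 678 bases of mt-Atp6, all but the last 3 of 684 of mt-Co2, 783 of 784 of mt-Co3 and 294 of 297 of mt-Nd4l. In mt-Nd3 the copy Gm28438 differed over 345 bases by the single substitution T3C, counted from the first base of the gene. In mt-Co1 the copy Gm29216 held only the last 483 bases, with the single substitution A1066T. The copy of mt-Nd4, Gm28439, held the first 876 of 1378 bases and so not the 3′ end. Thus 6 of the 13 mitochondrial genes (mt-Atp6, mt-Co1, mt-Co2, mt-Co3, mt-Nd3 and mt-Nd4l) had an annotated copy at least 99% identical up to at most 3 bases from the 3′ end. This set was drawn up after the values were seen.

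mt-Atp8 lies between mt-Co2 and mt-Atp6, in the 233 bases of mitochondrial DNA for which the block on chromosome 1 has a gap of the same 233 bases with no annotated gene. It shares its last 43 bases, chrM:7927-7969, with the start of mt-Atp6. This overlap is shown because a read from it could belong to either gene.
mt-Atp8 and mt-Atp6 overlap: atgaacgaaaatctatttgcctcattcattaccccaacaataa
No annotated copy at 95% identity or more was found for mt-Nd1, mt-Nd6, mt-Cytb or mt-Atp8. Copies outside annotated transcripts, such as in the gap on chromosome 1, were not sought. Less similar copies on other chromosomes matched mt-Nd2 (Gm13339, 96.7%) and mt-Nd5 (Gm4076, 95.2%). On chromosome 2, Gm13340 matched all 1545 bases of mt-Co1 at 97.6% and Gm13341 all 684 bases of mt-Co2 at 95.9%, both to the 3′ end. Among the nuclear members no annotated sense-strand copy reached the 3′ end. The sources used here do not give how reads that fit several places were counted, so values of the 6 genes with identical copies are uncertain.

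Control 1 had 4814 deposited barcodes (the study states 4860 cells), control 3 had 8109 (8149) and knockout 4 had 5152 (5229). Between library pairs, 26 (controls 1 and 3), 8 (control 1 and knockout) and 24 (control 3 and knockout) barcode sequences were shared. Values for the 3 libraries are given throughout in the order control 1, control 3, knockout 4. After filtering, 4115, 7449 and 4457 cells remained with median depths of 8770, 8160 and 6865 UMIs. Sums were formed over monocyte-macrophage cells, 3511, 6104 and 3684 cells with 33537925, 59110873 and 23729461 UMIs. The sums leave out 2 marker gates, lymphocyte genes and the genes Retnlg, Cxcr2 and Mmp8. The latter was meant to hold neutrophils but held 553, 1287 and 745 cells that were mostly positive for Mmp8, at 359, 389 and 451 CPM (a gene's UMIs per 1000000 UMIs of the same cells), with Retnlg at no more than 8.37 CPM and Ly6c2, the gene of the sorting antigen, at 907, 1011 and 1118. It is called the Mmp8 gate here, and values with its cells are given where they differ. All 10 listed Ly6Chi monocyte markers were detected in every library. Commd10 stood at 17.4, 10.7 and 8.83 CPM (log2 fold change -0.67 ± 0.30, edgeR adjusted p = 0.569). Whether its 3′ tags fall in the deleted part is not known here, so these values do not check the genotype.

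In these cells the 13 mitochondrial genes gave 0.839% of all UMIs in control 1 (95% exact interval 0.836% to 0.842%), 0.717% (0.715% to 0.719%) in control 3 and 0.891% (0.887% to 0.894%) in knockout 4. The 19 nuclear genes gave 0.791%, 0.720% and 0.745%. The knockout library was thus above both controls for the mitochondrial genes and between them for the nuclear genes. The ratio of mitochondrial to nuclear member UMIs was 1.06 and 0.996 in the controls and 1.20 in the knockout. The intervals cover counting error only; with 1 library against 2, no permutation test can go below p = 0.333, so none was made.

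The excess of the knockout in the mitochondrial share was larger in shallow than in deep cells. With the cells of a library split by UMI count into 4 groups of like size, in the shallowest group the mitochondrial genes gave 2.14%, 1.25% and 2.65% of UMIs, at median depths of 2301, 3830 and 1535 UMIs. In the deepest group they gave 0.710%, 0.670% and 0.730%. The nuclear genes did the reverse, at 0.667%, 0.648% and 0.523% in the shallowest group and 0.797%, 0.722% and 0.789% in the deepest. Cells with 5% to 10% mt- UMIs made up 9.62%, 6.48% and 11.6% of the cells that passed. With a limit of 5% in place of 10%, the difference between knockout and mean control fell from 0.113 to 0.0477 percentage points. Around the limit of 10% the change was gradual: barcodes with 8% to 10% gave 6.30%, 5.35% and 6.33% of UMIs from the members, and those with 10% to 12%, which were left out, gave 7.70%, 6.55% and 7.79%. The part of RNA quality in the mitochondrial share was not tested.

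None of the 32 members passed the test of knockout against control (edgeR quasi-likelihood test, Benjamini-Hochberg adjusted p from 0.293), against 0.249% of the 14431 genes tested (0.229% higher and 0.0208% lower). DESeq2 also called 0 members. At an unadjusted p under 0.05 there were 4 members, all mitochondrial: mt-Atp6, mt-Co2, mt-Co3 and mt-Atp8, against 9.17% of all genes. The spread within the groups came from the control pair alone. CPM values of this comparison are scaled with TMM factors (trimmed mean of M-values). A log2 fold change sets the knockout against the control libraries and is given ± its standard error, n = 2 control and 1 knockout libraries.

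The 19 nuclear genes kept close to the controls. Their log2 fold changes ran from -0.18 to 0.17 with a median of 0.02, beside a median of -0.01 over all genes tested. The median of the absolute fold changes was 0.06 for the nuclear members, 0.33 for the mitochondrial members and 0.22 for all genes. The knockout lay above both controls for 6 nuclear members, below both for 5 and between them for 8, where 36.5% of all genes lay above and 37.3% below.

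**Figure D1:**
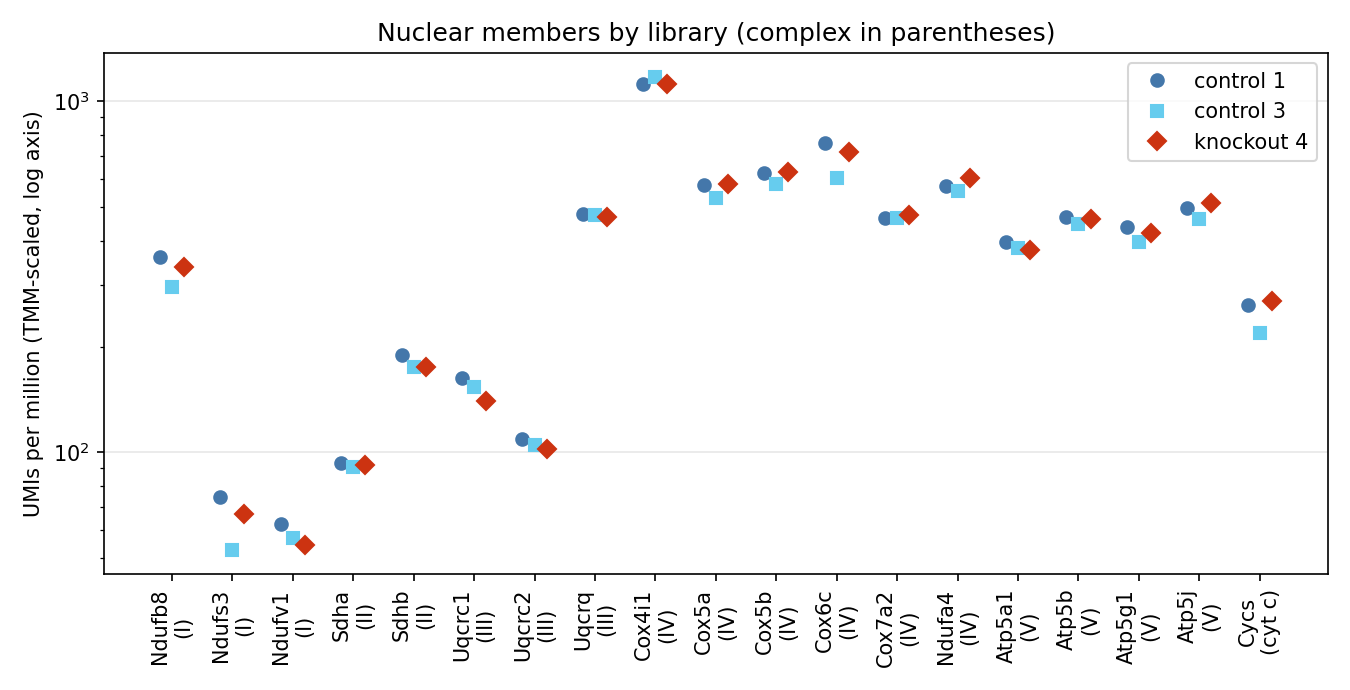
Levels of the 19 nuclear members in the 3 libraries, in CPM on a log axis, ordered by complex; each point is 1 library summed over its monocyte-macrophage cells. The knockout points sit close to the control points in every complex, and the control points of Ndufs3 lie as far apart as 74.7 and 52.5.

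In complex I, Ndufv1, which carries the NADH-binding flavin site, stood at 62.4, 57.2 and 54.6 CPM. Its log2 fold change was -0.13 ± 0.15 (adjusted p = 0.833). Ndufs3, a core subunit of the peripheral arm, stood at 74.7, 52.5 and 66.9, a log2 fold change of 0.07 ± 0.22 (adjusted p = 0.941). The knockout value of Ndufs3 lay between controls that differed 1.42-fold. Ndufb8, an accessory subunit of the membrane arm, stood at 359.6, 295.6 and 337.4, also between them.

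Complex II oxidises succinate. Sdha, its flavoprotein, stood at 93.2, 90.6 and 92.0 CPM, and Sdhb, its iron-sulfur subunit, at 189.9, 175.2 and 175.3. The log2 fold changes were 0.00 ± 0.15 and -0.06 ± 0.15 (adjusted p = 0.998 and 0.934). Both knockout values lay within the range of the controls.

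Complex III was the one complex whose 3 nuclear members all lay below both controls. Uqcrc1, a core protein, stood at 162.4, 153.8 and 139.9 CPM, a log2 fold change of -0.18 ± 0.15 (adjusted p = 0.768). Uqcrc2, the other core protein, stood at 109.4, 105.0 and 102.1 (-0.07 ± 0.15, adjusted p = 0.918). For Uqcrq, a small subunit, the values were 476.9, 475.2 and 469.4, and the fold change turned to 0.04 when cells of the Mmp8 gate were added. Uqcrc1 was below both controls in 8 of 8 marker-gated groups, at -0.27 to -0.14, and passed in none (lowest adjusted p = 0.549).

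Complex IV reduces oxygen. Ndufa4, a subunit first assigned to complex I and since placed in complex IV, stood at 573.8, 555.7 and 605.9 CPM (0.10 ± 0.15, adjusted p = 0.874). Cox5a stood at 577.2, 531.7 and 583.4 (0.07 ± 0.15, adjusted p = 0.917). Both were above both controls, as were Cox5b and Cox7a2, while Cox4i1 and Cox6c lay between them. Cox4i1, the regulatory subunit with the highest level of the 6 nuclear members of this complex, stood at 1121, 1176 and 1122.

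For complex V, Atp5j, the coupling factor 6 of the peripheral stalk, stood at 496.9, 461.2 and 512.6 CPM (0.10 ± 0.15, adjusted p = 0.884). Atp5a1, the alpha subunit of the catalytic head, stood at 397.9, 381.0 and 377.3 (-0.05 ± 0.15, adjusted p = 0.9496). The beta subunit Atp5b and the c-ring gene Atp5g1 lay between the controls. Cycs, cytochrome c, the mobile electron carrier that also triggers the apoptosome when it leaves the mitochondria, stood at 262.6, 218.4 and 269.8 (0.17 ± 0.17, adjusted p = 0.806). It had the highest fold change of the nuclear members and was positive in 8 of 8 gated groups, at 0.01 to 0.38, passing in none.

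The mitochondrial genes differed far more among themselves. Per kilobase of gene, mt-Cytb, the cytochrome b of complex III, was highest at 2393, 2048 and 2790 CPM per kilobase, followed by the complex I genes mt-Nd1 (1763, 1506 and 1779), mt-Nd4 (1185, 1071 and 1367) and mt-Nd2 (1024, 892 and 1142). The library ranges of mt-Nd4 and mt-Nd2 overlapped, and those of mt-Cytb, mt-Nd1 and mt-Nd4 did not. mt-Co1, the catalytic subunit of complex IV, followed at 358, 368 and 378. At the low end stood mt-Nd6, the one mitochondrial member on the minus strand, mt-Nd4l and mt-Co3, the last at 13.8, 6.47 and 19.8. Since tags come from 3′ ends, length scaling does not make these values equal to transcript numbers. mt-Co1, mt-Nd4l and mt-Co3 are also among the 6 genes with a copy at least 99% identical up to the 3′ end, so their places here are uncertain. mt-Cytb, mt-Nd1, mt-Nd4 and mt-Nd2 gave 33.5%, 20.6%, 19.95% and 12.999% of the mitochondrial member UMIs of control 1 and 35.1%, 18.7%, 20.7% and 13.01% of those of the knockout.

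**Figure D2:**
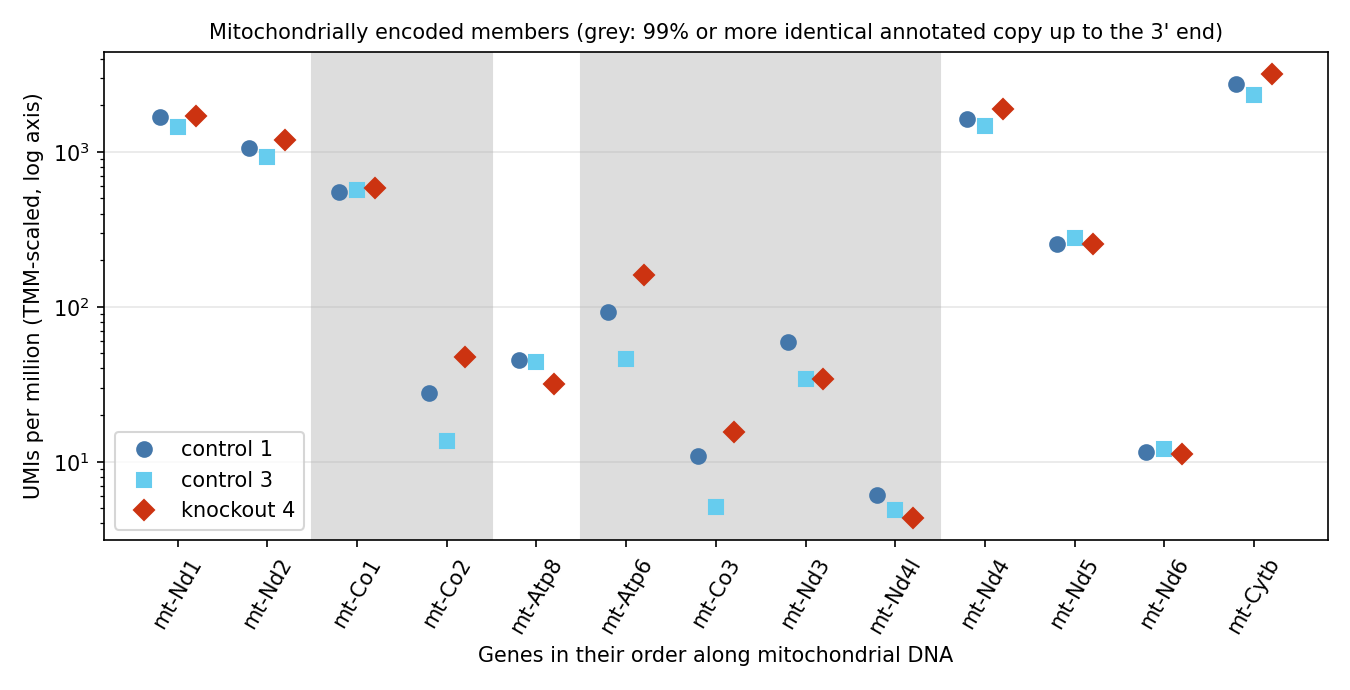
Levels of the 13 mitochondrially encoded members in the 3 libraries, in CPM on a log axis, in their order along mitochondrial DNA; grey marks the 6 genes with a copy at least 99% identical up to the 3′ end. The libraries lie furthest apart for mt-Co2, mt-Atp6 and mt-Co3, in the order knockout 4, control 1, control 3.

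Among the complex V genes, mt-Atp6, the proton-channel subunit a, was counted at 92.1 CPM in the first control library, 45.8 in the other one and 160.4 in the knockout. The knockout was highest, and the controls themselves differed 2.01-fold. The log2 fold change was 1.22 ± 0.33 (unadjusted p = 0.00629, adjusted p = 0.293). Without the filter on low counts the edgeR adjusted p was 5.76e-10 and the call was made, in a setting where more genes passed than with the filter. With DESeq2 the adjusted p was 0.9996. These are the lowest and highest of its alternatives. mt-Atp8, which shares the precursor and 43 bases with mt-Atp6, went the other way at 45.7, 44.1 and 31.9. There the controls nearly coincided and the knockout was lowest (-0.49 ± 0.15, unadjusted p = 0.0127, adjusted p = 0.376).

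The ratio of mt-Atp6 to mt-Atp8 UMIs compares the pair within a library and does not depend on library scaling. It was 2.01 in control 1, 1.04 in control 3 and 5.02 in knockout 4. In the deepest of the 4 UMI groups it was 1.78, 0.965 and 5.59, and in the shallowest 2.37, 1.24 and 5.50. The order of the libraries was thus there in shallow and deep cells. mt-Atp6 has the identical copy Gm10925, whereas no annotated copy of mt-Atp8 was found, and the pair shares 43 bases. How reads were placed among these is not known, and its part in the ratio was not tested.

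In complex IV, mt-Co2, the subunit that takes electrons from cytochrome c, stood at 27.9, 13.6 and 47.1 CPM (1.19 ± 0.34, unadjusted p = 0.00831, adjusted p = 0.326). mt-Co3 stood at 10.8, 5.07 and 15.6 (0.98 ± 0.38, unadjusted p = 0.0330, adjusted p = 0.498). Both had the library order of mt-Atp6, and control 1 exceeded control 3 by 2.05-fold and 2.14-fold. mt-Co1 did not share it, at 552.5, 569.2 and 584.3 (0.06 ± 0.15, adjusted p = 0.931). When cells were thinned to 3000 UMIs each, mt-Atp6 was at 0.98, mt-Co2 at 1.06 and mt-Co3 at 0.35. Against control 1 alone the fold changes of mt-Atp6, mt-Co2 and mt-Co3 were 0.80, 0.76 and 0.52, and against control 3 alone 1.81, 1.79 and 1.62.

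Complex III and most complex I genes of mitochondrial DNA showed smaller differences. mt-Cytb stood at 2738, 2343 and 3192 CPM (0.33 ± 0.16, adjusted p = 0.603), mt-Nd4 at 1632, 1476 and 1884 (0.28 ± 0.16, adjusted p = 0.643) and mt-Nd2 at 1063, 926 and 1185 (0.25 ± 0.16, adjusted p = 0.687). mt-Nd1 stood at 1687, 1442 and 1702 (0.12 ± 0.17, adjusted p = 0.859). In these genes the knockout was highest and control 3 lowest, as for mt-Atp6, but control 1 exceeded control 3 by only 1.11- to 1.17-fold. With cells thinned to 3000 UMIs, which leaves out 502, 671 and 713 shallower cells, mt-Cytb was at 0.17, mt-Nd4 at 0.13, mt-Nd2 at 0.09 and mt-Nd1 at -0.003. The median of the 13 genes went from 0.12 to -0.003 with thinning and to 0.03 at the limit of 5%.

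The remaining complex I genes were not higher in the knockout. mt-Nd3 stood at 59.0, 34.1 and 34.4 CPM, so control 1 alone was high (-0.43 ± 0.29, adjusted p = 0.698), and without control 1 the fold change was 0.01. mt-Nd5 stood at 254.2, 279.6 and 254.1 (-0.07 ± 0.16, adjusted p = 0.918), mt-Nd6 at 11.5, 12.1 and 11.2 (-0.08 ± 0.20, adjusted p = 0.924) and mt-Nd4l at 6.10, 4.87 and 4.35 (-0.33 ± 0.28, adjusted p = 0.764). mt-Nd4l rested on at most 287 UMIs a library. The knockout was lowest in each of these 3, by less than 1 standard error for mt-Nd5 and mt-Nd6. In all, 8 of 13 mitochondrial genes lay above both controls, 4 below both and 1 between, where 36.5% of all genes lay above and 37.3% below.

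The mitochondrial ribosomal RNAs, which are no members, stood in another order. mt-Rnr1 was at 576, 687 and 730 CPM and mt-Rnr2 at 2550, 3263 and 3258, lowest in control 1. The 2 gave 27.6%, 35.4% and 30.4% of all mt- UMIs.

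The 6 genes with an identical 3′ copy did not move together, with mt-Atp6, mt-Co2 and mt-Co3 high in the knockout, mt-Co1 close to the controls and mt-Nd3 and mt-Nd4l not higher. The features of the copies themselves were sparse. Gm10925, the copy of mt-Atp6, stood at 1.37, 0.59 and 1.72 CPM, Gm28661, the copy of mt-Co2, at 2.33, 1.34 and 2.63, and Gm28437, the copy of mt-Co3, at 2.94, 1.34 and 3.66. These 3 had the library order of their mitochondrial counterparts and none passed (fold changes 0.86 ± 0.54, 0.54 ± 0.41 and 0.80 ± 0.46). Gm28439, the copy of mt-Nd4, also had the order of its counterpart, at 0.26, 0.24 and 0.34 on 9, 14 and 8 UMIs. Gm28438, the copy of mt-Nd3, was highest in control 1 like mt-Nd3, at 0.47, 0.32 and 0.30 on 16, 19 and 7 UMIs. Some other copies did not follow theirs. Gm13341, the chromosome 2 copy of mt-Co2, stood at 0.87, 0.39 and 0.69, with the knockout between the controls. The mt-Co1 copies Gm29216 (1.74, 1.05 and 1.59) and Gm13340 (1.16, 0.88 and 1.16) were lowest in control 3, whereas mt-Co1 was lowest in control 1. The part of reads shared with the copies in the differences between libraries was not tested.

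Cells were then split by markers into groups, each called by its genes, with an ordered rule of UMIs per 10000. In each of the 8 groups with at least 100 cells a library, mt-Atp6, mt-Co2 and mt-Co3 were highest in the knockout, next in control 1 and lowest in control 3. The log2 fold changes ran from 1.05 to 1.38 for mt-Atp6, 1.05 to 1.45 for mt-Co2 and 0.62 to 1.52 for mt-Co3. mt-Cytb (0.21 to 0.46) and mt-Nd4 (0.11 to 0.39) kept the same order in all 8. mt-Atp8 was below both controls in 7 of 8, the exception being cells in no gate, where it stood at 46.0, 42.2 and 45.9 CPM.

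**Figure D3:**
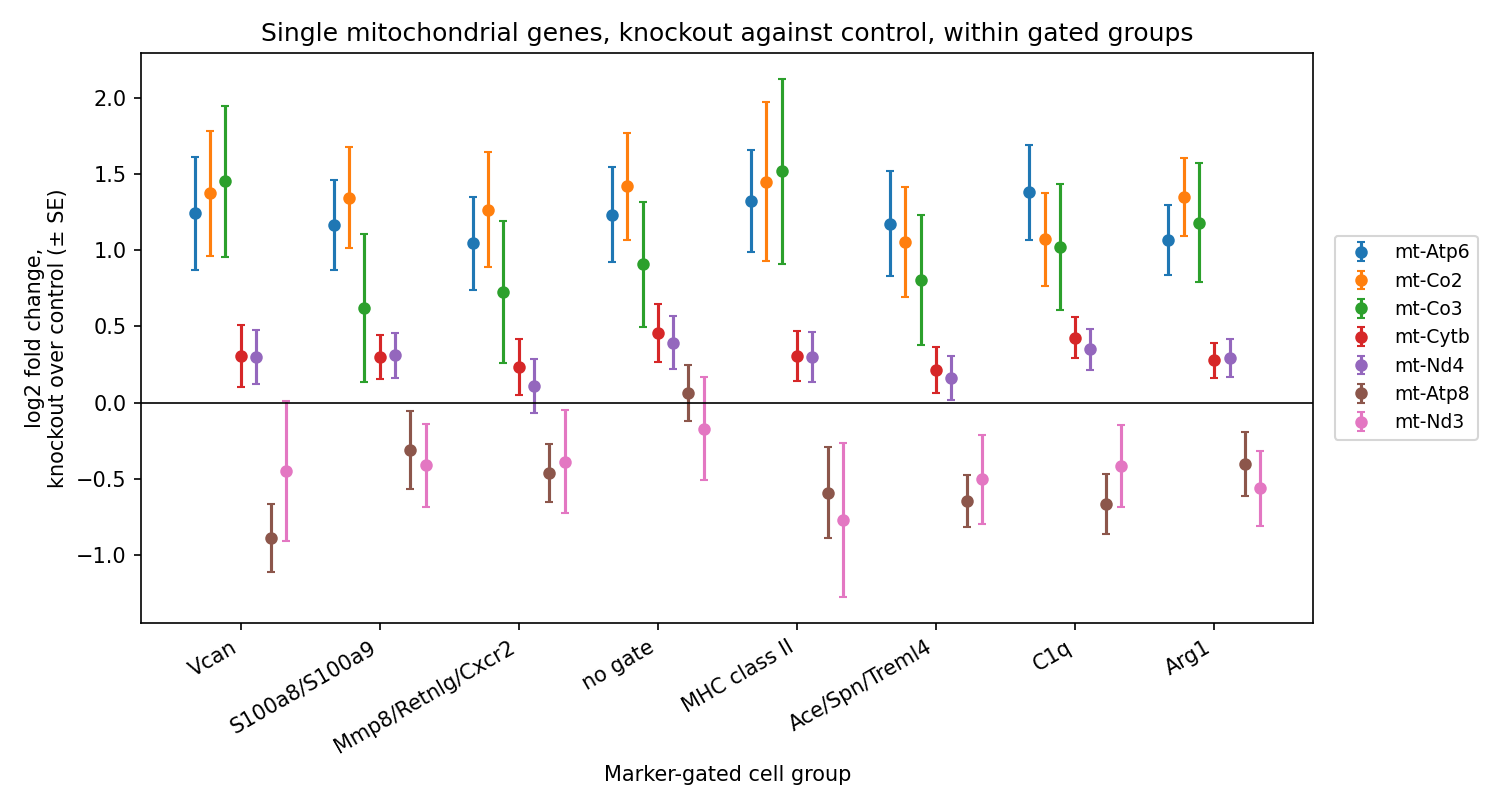
Log2 fold change of knockout over control with standard error for 7 mitochondrial genes in each of 8 marker-gated groups, fitted within each group on 2 control and 1 knockout libraries. mt-Atp6 and mt-Co2 lie at 1.05 or above in all 8 groups, and mt-Atp8 lies below 0 in all but the cells of no gate.

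Members passed the test within 1 of the 8 groups, the Arg1 group. Arg1, arginase 1, marks macrophages that use arginine for polyamines and repair. There mt-Co2 stood at 23.3, 13.2 and 48.2 CPM (1.35 ± 0.26, adjusted p = 0.00513) and mt-Atp6 at 94.1, 49.7 and 154.0 (1.07 ± 0.23, adjusted p = 0.0125). In that group 4.34% of 9468 genes passed, 241 of them higher and 170 lower. The calls were 2 of 32 members, both higher and both mitochondrial, and are not shown to exceed this background. The other groups had 0 member calls with edgeR, where 0.018% (Mmp8), 0.0811% (Ace/Spn/Treml4), 0.418% (C1q), 0.118% (S100a8/S100a9), 0.0114% (MHC class II), 0% (Vcan) and 0.141% (no gate) of genes passed. Over these 7 groups, 29 of 223 member tests had an unadjusted p under 0.05, all but 1 of them of mitochondrial genes, against 7.33% of all gene tests. The Arg1 group held 230, 136 and 809 cells. When the difference of the knockout effect between groups was tested, no member passed (lowest adjusted p = 0.121, for Atp5g1; edgeR, 0.48% of genes passed; 4 members had an unadjusted p under 0.05, against 11% of genes), and this test was added after the data were seen. The 2 calls therefore are not shown to be particular to Arg1 cells.

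Lyz2, whose locus drives the Cre, is a myeloid gene, so lymphocytes were looked at separately. The 51, 58 and 28 cells of the lymphocyte gate held mt-Atp6 at 100 (95% exact interval 69.5 to 140), 63.6 (41.2 to 93.9) and 163 (104 to 245) CPM, on 34, 25 and 23 UMIs. The order of the libraries was the one seen in monocytes, though neighbouring intervals overlapped. For mt-Co2 (13, 4 and 2 UMIs) and mt-Co3 (9, 3 and 2) the knockout was not the highest, at 38.4, 10.2 and 14.2 CPM and at 26.6, 7.64 and 14.2 CPM, and counts this low cannot show the monocyte order. These cells also held Csf1r, a monocyte receptor gene, at 496, 524 and 554 CPM, against 679, 640 and 610 in monocyte-macrophage cells. Lymphocyte-gated barcodes thus carried monocyte RNA, and their values are not free of it. Among barcodes left out for over 10% mt- UMIs (374, 214 and 223), mt-Atp6 took 1.26%, 0.675% and 1.66% of the mitochondrial member UMIs, against 1.13%, 0.636% and 1.76% in the cells kept.

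The summed markers of some other cell types had the library order of mt-Atp6. The summed level of 6 platelet markers was 185, 145 and 425 CPM over the 3 libraries (controls first), and that of 8 neutrophil markers, among them S100a8 and S100a9, which monocytes also make, was 569, 352 and 1029. The 6 endothelial markers gave 14.1, 11.2 and 24.6, and all 3 sums had that order. Among single markers, the knockout lay above both controls for 2 of 3 platelet, 4 of 7 neutrophil and 3 of 6 endothelial markers tested. It lay below both for 0, 1 and 2 of them, where 36.5% of all genes lay above and 37.3% below. Of the 3 platelet markers, 2 passed as higher (edgeR, lowest adjusted p = 0.000795), where 0.229% of all genes did. Platelet log2 fold changes ran from -0.19 to 3.48. No neutrophil or endothelial marker passed (edgeR, lowest adjusted p = 0.0719 and 0.0837). The 12 hepatocyte markers stood at 85.4, 166 and 95.7 and the 5 erythroid markers at 1.64, 74.5 and 37.2, in another order. The 6 B cell markers were lowest in the knockout, at 51.9, 42.4 and 20.1. The 8 T and NK cell markers (3.55, 1.61 and 1.73), 8 dendritic cell markers (229, 270 and 233) and 6 Kupffer cell markers (10.3, 4.64 and 5.65) did not have the knockout highest either. Hepatocyte, platelet, neutrophil, endothelial and Kupffer cell lists had no marker at 0 in any library. In the erythroid list Alas2 was at 0 in the knockout. Their part in the mitochondrial values was not tested.

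The groups could also be compared with each other within libraries, each against the Vcan group, with the library as a block (n = 3 libraries). Vcan, versican, marks monocytes newly arrived from blood. Over 8 contrasts, members passed 26 times, 9 times higher and 17 times lower. Of these, 2 higher and 9 lower calls were in the lymphocyte gate. In single contrasts, 0.378% (Mmp8) to 12.5% (C1q) of all genes passed higher and 0.103% (Mmp8) to 12.3% (C1q) lower. The counts over all groups are therefore not shown to exceed the background. The higher calls were all mitochondrial, and 15 of the 17 lower calls were nuclear. The depth of the groups differed, and the calls lean on control 1, without which 0 higher and 5 lower calls were left.

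**Figure D4:**
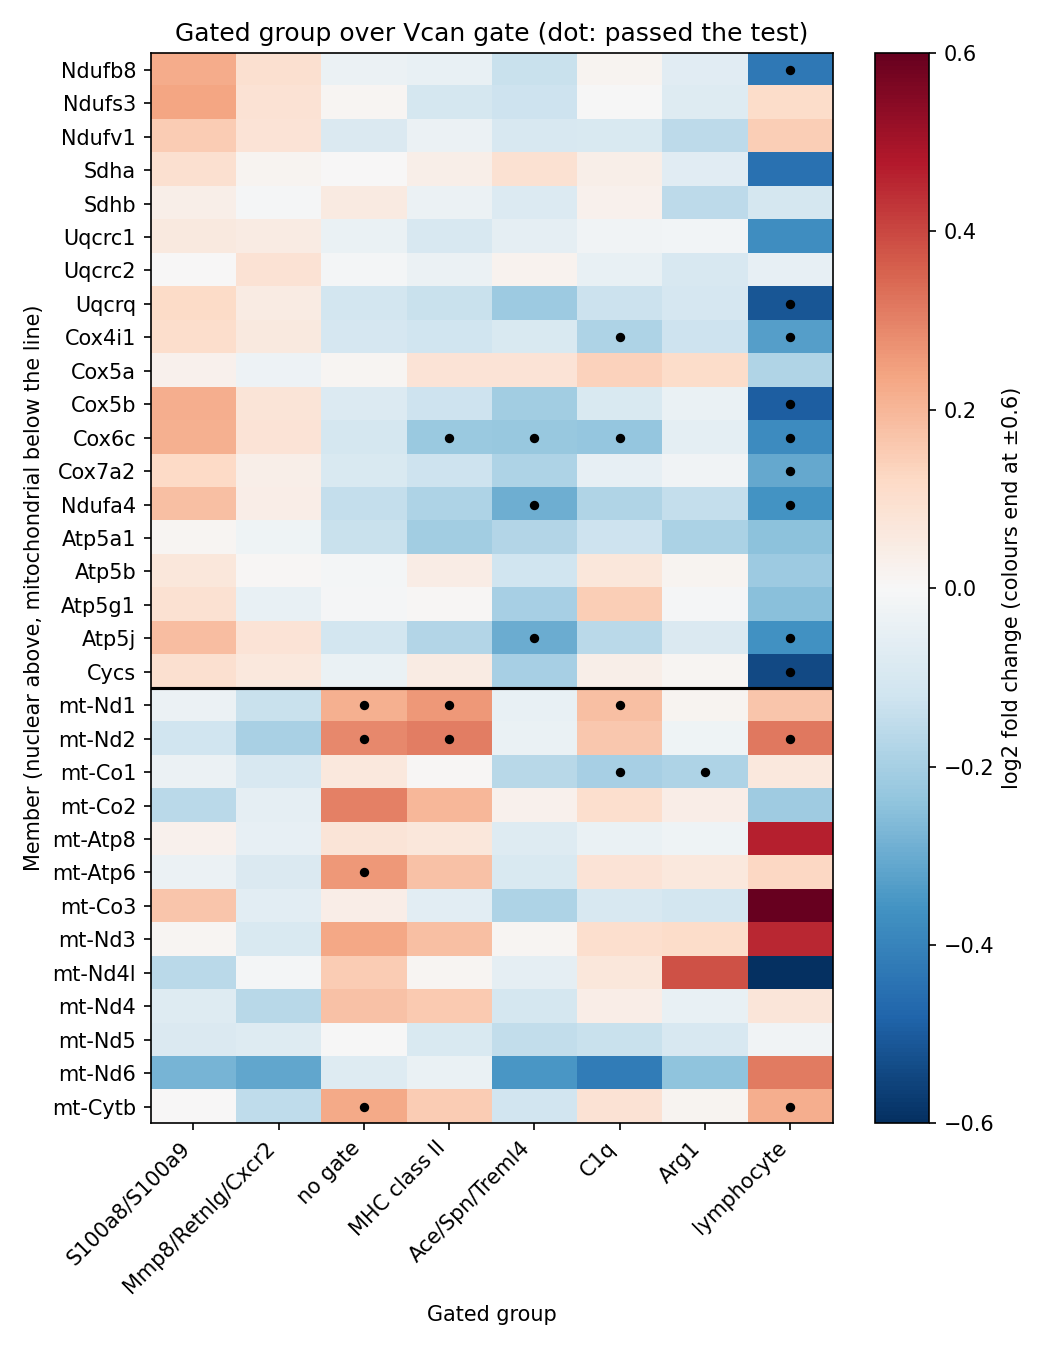
Log2 fold change of each member in 8 gated groups over the Vcan group, with the library as a block; dots mark members that passed at an adjusted p under 0.05. Positive values are red and negative ones blue. In cells of no gate and in the MHC class II and lymphocyte groups, 10 or 11 of 13 mitochondrial genes are red. In every group but S100a8/S100a9 and Mmp8, 12 to 17 of 19 nuclear genes are blue. Of all 11640 genes, 5511 (lymphocyte) to 5953 (Mmp8) were positive and 5687 (Mmp8) to 6129 (lymphocyte) negative.

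In cells of the MHC class II gate, which hold antigen-presentation genes, mt-Nd2 was higher by 0.31 ± 0.07 (edgeR adjusted p = 0.00334) and mt-Nd1 by 0.26 ± 0.06 (adjusted p = 0.00199). mt-Nd2 stood at 1334, 1031 and 1418 CPM in this group and at 1080, 865 and 1101 in the Vcan group, higher in 3 of 3 libraries. Cox6c was lower, at -0.22 ± 0.06 (adjusted p = 0.0186). Here 4.80% of 11640 genes passed higher and 5.02% lower, beside 2 and 1 of 32 members. The mitochondrial median was 0.15 and the nuclear median -0.10, against -0.01 for all genes.

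Cells in no gate had the lowest depth of the monocyte-macrophage groups, at medians of 7644, 6747 and 5485 UMIs, apart from the MHC class II group in control 1. There mt-Nd2 (0.29 ± 0.07, adjusted p = 0.00833), mt-Nd1 (0.21 ± 0.06, adjusted p = 0.0158), mt-Cytb (0.23 ± 0.06, adjusted p = 0.0152) and mt-Atp6 (0.26 ± 0.08, adjusted p = 0.0403) were higher, and no nuclear member passed (edgeR; 0 of 19 had an unadjusted p under 0.05, against 18% of genes). The mitochondrial share was 0.936%, 0.767% and 1.08%, against 0.837%, 0.685% and 0.884% in the Vcan group. With 3.27% of genes passing higher and 2.54% lower, 4 higher and 0 lower of 32 members was above the background in the higher direction. This rests on control 1, without which 0 higher calls were left in any group. At a limit of 20% mt- UMIs, 4 higher calls were made over all groups. The 4 genes lie on the same strand of mitochondrial DNA and share its precursor, so they are not independent members. The part of depth in these differences was not tested.

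**Figure D5:**
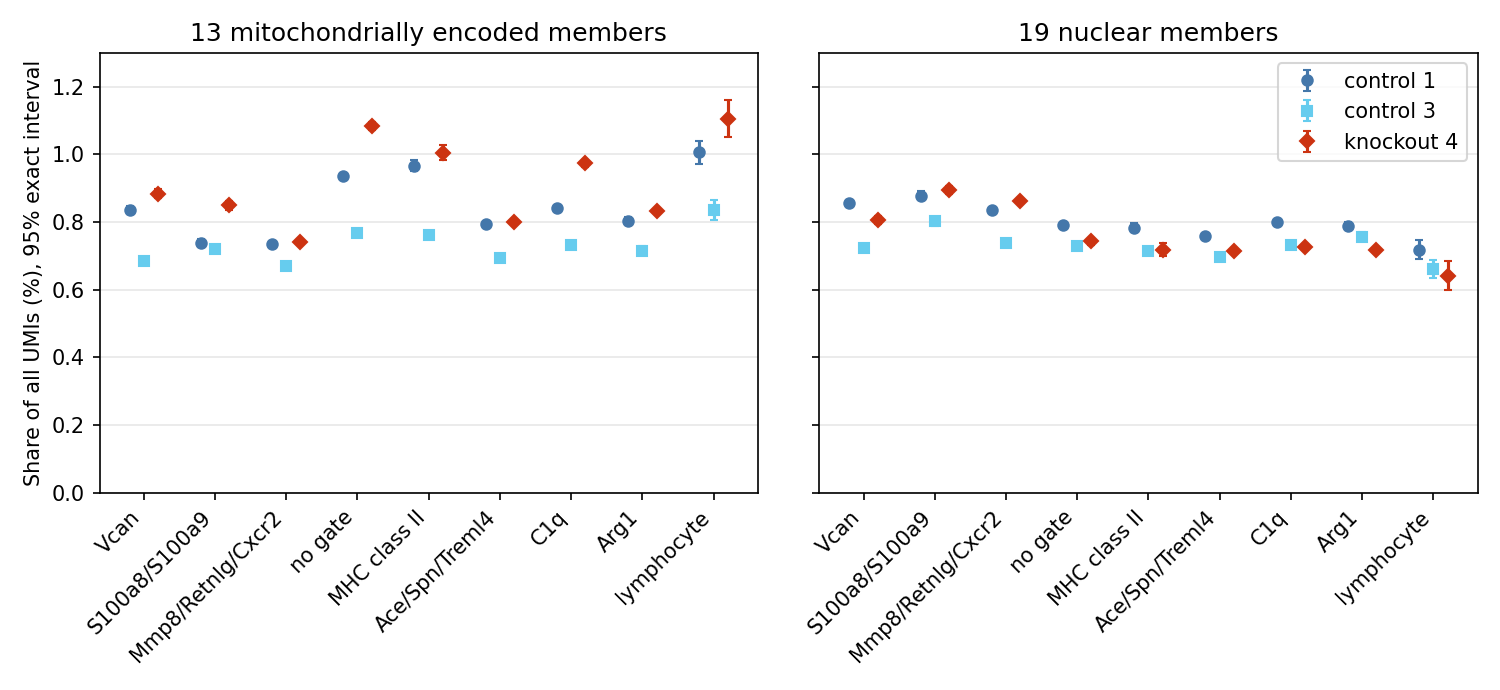
Share of all UMIs in each gated group from the 13 mitochondrial members (left) and the 19 nuclear members (right), 1 point a library with its 95% exact interval for counting error. The mitochondrial share of the knockout is the highest in all 9 groups, though its interval overlaps that of control 1 in 2 of them (Mmp8 and Ace/Spn/Treml4); its nuclear share is above both controls in 2 groups, between them in 4 and below both in 3.

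In the C1q gate, whose complement genes mark maturing macrophages, Cox6c (-0.23 ± 0.06, adjusted p = 0.00401) and Cox4i1 (-0.18 ± 0.05, adjusted p = 0.0126) of complex IV were lower. mt-Co1 of the same complex was lower as well (-0.20 ± 0.06, adjusted p = 0.0215), and mt-Nd1 was higher (0.18 ± 0.06, adjusted p = 0.0160). mt-Co1 stood at 516, 526 and 561 CPM there and at 627, 598 and 612 in the Vcan group, without overlap. In this contrast 12.5% of genes passed higher and 12.3% lower, so the 4 calls among 32 members are no more than the background. The Arg1 gate gave 1 call, mt-Co1 at -0.18 ± 0.07 (adjusted p = 0.0487), where 9.19% of genes passed higher and 9.45% lower.

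The Ace/Spn/Treml4 gate took 25.4%, 22.1% and 19.7% of cells and so is broader than the patrolling monocytes these genes are known for; it held Ly6c2 at 264, 406 and 250 CPM, against 997, 751 and 777 in the Vcan group. In it 3 nuclear genes were lower: Atp5j (-0.30 ± 0.07, adjusted p = 0.00183), Ndufa4 (-0.29 ± 0.07, adjusted p = 0.00494) and Cox6c (-0.23 ± 0.06, adjusted p = 0.00920), where 5.73% of genes passed higher and 5.96% lower. Atp5j stood at 458, 424 and 451 against 598, 484 and 563. The values of Cox6c there were 744, 580 and 641 against 865, 639 and 807. In each library the Ace/Spn/Treml4 group was the lower one for all 3 genes.

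The S100a8/S100a9 gate marks monocytes with a neutrophil-like program. In it all 19 nuclear members had a positive fold change with a median of 0.10, where 5757 of 11640 genes were positive. None of the 19 passed with edgeR, and 6 had an unadjusted p under 0.05, against 13% of genes. There 1.07% of genes passed higher and 0.962% lower. The Mmp8 gate showed 15 of 19 nuclear members positive and 13 of 13 mitochondrial members negative, with medians of 0.05 and -0.09. Of 11640 genes, 5953 were positive and 5687 negative there. No member passed with edgeR in this gate either, beside 0.378% of genes higher and 0.103% lower. An unadjusted p under 0.05 was reached by 0 nuclear and 4 mitochondrial members, against 8.62% of genes. Lymphocyte-gated cells had 9 nuclear members lower and 2 mitochondrial members higher, where 7.11% and 5.41% of genes passed. Cycs (-0.54 ± 0.14, adjusted p = 0.00588), Uqcrq (-0.51 ± 0.10, adjusted p = 0.000504) and Cox5b (-0.49 ± 0.10, adjusted p = 0.000428) led the lower calls. The others were Ndufb8 (-0.43), Cox6c (-0.38), Atp5j (-0.36), Ndufa4 (-0.36), Cox4i1 (-0.33) and Cox7a2 (-0.31). mt-Nd2 (0.32 ± 0.08, adjusted p = 0.00420) and mt-Cytb (0.22 ± 0.06, adjusted p = 0.0167) were higher there.

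Lists of other genes of the pathway gave 0 calls in the comparison of knockout with control (edgeR). At an unadjusted p under 0.05 there was 1 gene each in the lists of complex IV, complex V, mitochondrial DNA handling and the citric acid cycle, where 9.17% of all genes had one. Of 33 other nuclear complex I subunits, 17 lay below both controls and 4 above both (37.3% and 36.5% of all genes), with Ndufa3 at 394.5, 360.4 and 315.2 CPM (-0.26 ± 0.16, adjusted p = 0.671) and Ndufs7 at 172.5, 165.8 and 142.1 (-0.25 ± 0.15, adjusted p = 0.671). The other complex II genes were Sdhd at 89.8, 84.8 and 102.9 (0.24 ± 0.15, adjusted p = 0.687) and Sdhc at -0.05, both membrane anchors. In complex III, Uqcr11 (-0.17) and Uqcrb (0.07) had the smallest p of 6. Of the complex V list 12 of 14 symbols were tested; Atp5k, a subunit of the dimer interface, stood at 356.3, 303.5 and 232.6 (-0.50 ± 0.17, adjusted p = 0.426) and Atpif1, the inhibitor of ATP hydrolysis, at 354.7, 298.3 and 271.5 (-0.27 ± 0.17, adjusted p = 0.688).

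Of the 10 other complex IV genes, Cox7a2l, which acts in supercomplex assembly, stood at 205.3, 259.2 and 180.7 CPM (-0.36 ± 0.19, adjusted p = 0.612). Ndufa4l2, the hypoxia-induced relative of Ndufa4, was seen in 1, 1 and 13 UMIs. The knockout rate was 25.4 times that of the pooled controls, with a counting interval from 5.75 to 232 (exact binomial, 95%), and the edgeR adjusted p was 0.197. So few UMIs may come from few cells.

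Genes that copy, transcribe and process mitochondrial DNA or RNA lay below both controls in 15 of 27 and above in 7, against 37.3% and 36.5% of all genes. Tfb1m, an rRNA methyltransferase, stood at 3.31, 2.92 and 1.59 CPM (-0.96 ± 0.34, adjusted p = 0.438) and Mterf3, a regulator of mitochondrial transcription, at 18.1, 19.4 and 24.0 (0.36 ± 0.17, adjusted p = 0.575). Among the regulators of respiratory genes 10 of 12 were tested, with Nrf1 at 27.2, 29.8 and 36.6 (0.36 ± 0.16, adjusted p = 0.549) and Ppargc1b at 4.56, 2.95 and 2.20 (-0.76 ± 0.38, adjusted p = 0.597). The carrier list held 7 genes, with Slc25a4, the ATP/ADP carrier, at 99.9, 84.0 and 72.3 (-0.35 ± 0.17, adjusted p = 0.595) and the phosphate carrier Slc25a3 at 563.4, 586.0 and 648.7 (0.17 ± 0.15, adjusted p = 0.767). Of 17 citric acid cycle genes 11 lay below both controls and 3 above, against the same shares of all genes. Idh2, the mitochondrial isocitrate dehydrogenase, stood at 57.2, 46.1 and 33.8 (-0.61 ± 0.18, adjusted p = 0.344) and Fh1, fumarase, at 34.8, 32.8 and 26.4 (-0.36 ± 0.16, adjusted p = 0.565).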

How the data were processed

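Single-cell 3′ libraries were measured in sorted liver monocytes (2 control and 1 knockout). Values are unnormalized UMI counts, deposited as 1 matrix a library; the authors used bcl2fastq and Cell Ranger 3.0.2 with build GRCm38, per the submitters' processing notes; the lowest barcode total was 500 UMIs, and doublets were not called or removed here. Barcodes were kept and gated, in order, by UMIs per 10000 (each gate also needing at least 2 UMIs): lymphocyte genes 2, Retnlg, Cxcr2 and Mmp8 2, Ace, Spn and Treml4 2, C1qa to C1qc 5, Arg1 5, S100a8 and S100a9 5, MHC class II 10, Vcan 2.

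Cells were not replicates: counts were summed per library and tested with edgeR 4.0.16 in R 4.3.3 (TMM, filterByExpr, glmQLFit, two-sided glmQLFTest, Benjamini-Hochberg over all genes, threshold 0.05). Knockout against control had 1 residual degree of freedom (6.88 prior) and assumes that the lone knockout library varies like the controls. Groups were compared in 1 fit with library as a block (11640 genes, 16 residual degrees of freedom). DESeq2 1.42.0 was an alternative. The test was checked on simulated data. Library depth was 30302932 to 72867668 UMIs.

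Copies were sought with blastn 2.17.0 in GENCODE M21 transcripts (at least 90 bases and 95% identity, the last 300 bases of nuclear members, all of mitochondrial ones); 99.7% of 53802 feature identifiers matched. Sequences are from those transcripts. The members and lists were chosen with earlier results of these data known. Values are given for all mitochondrial members, members that passed, and the 2 nuclear members of each complex and 2 genes of each list with the smallest p; other values serve comparisons and were chosen after they were seen. Atp5md and Atp5mpl are not features under these symbols.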

Additional observations from a re-analysis of the deposited data

How the results depend on the processing

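No paired analysis was possible because the control libraries carry replicate numbers 1 and 3 and the knockout number 4. Of 416 member fold changes under alternatives, 388 kept their direction and, where a test was possible, their side of the threshold. Another 25 changed sign and 3 passed, those of mt-Atp6 (1.20), mt-Co2 (1.17) and mt-Co3 (0.96) without the filter on low counts. There 3 members and 480 genes were called, against 0 and 36 with the filter. Every gene with a UMI is tested without the filter. Their number is not given here, so the 3 calls have no background share beside them. Genes called were 107 with DESeq2, 20 with library totals in place of TMM, 23 at 20% and 22 without a limit on mt- UMIs, 20 without the Arg1 gate, 9 without cells of high UMI count, 85 with cells thinned to 3000 UMIs, and 23 with the Mmp8-gate cells, an alternative added after seeing the data. The sign changes were Sdha with DESeq2 (-0.0078), with totals Ndufb8 (-0.0074), Sdha (-0.046), Cox7a2 (-0.016), Atp5b (-0.029) and Atp5g1 (-0.032), without the filter Sdha (-0.022), Atp5b (-0.0040) and Atp5g1 (-0.0065), at 5% mt-Co1 (-0.017), without high-UMI cells Atp5b (-0.0054) and Atp5g1 (-0.013), thinned Sdha (-0.045), Atp5g1 (-0.011), mt-Nd1 (-0.0032) and mt-Co1 (-0.068), and with Mmp8-gate cells Uqcrq (0.037). Leaving out a control (no test is then possible with 1 library against 1) gave -0.10 to 0.19 for Ndufb8, -0.17 to 0.35 for Ndufs3, -0.027 to 0.022 for Sdha, -0.12 to 0.00053 for Sdhb, -0.095 to 0.25 for Cox6c, -0.022 to 0.054 for Atp5b, -0.061 to 0.090 for Atp5g1 and -0.79 to 0.013 for mt-Nd3, the low end without control 3. The nuclear median was -0.029 with totals, -0.032 without control 3 and -0.0040 without the filter. The causes were not tested.

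For the groups against the Vcan group, higher member calls (9) were 5 with every threshold doubled, 4 at 20% mt- UMIs, 14 with gates re-defined by Ace and Treml4 and by Retnlg and Cxcr2 (added after seeing the data), and 0 to 7 with 1 library left out: 0 without control 1, 4 without control 3 and 7 without the knockout. Lower calls (17) were 22 with every threshold doubled, 24 at 20% mt- UMIs, 26 with the re-defined gates and 5 to 13 with 1 library left out, 5 without control 1. With doubled thresholds the lymphocyte gate had too few cells; of the 15 calls in the gates left (7 higher, 8 lower) 11 were made, so 5 higher and 22 lower calls compare with these. All 26 kept their sign when any 1 library was left out. Calls made without control 1 were 5 of the same 26. Low members such as mt-Nd4l and mt-Co3 are limited by depth.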
